A study of Mus musculus with 2 samples.

Results

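The mitochondrial ribosomal proteins are the nuclear-encoded proteins of the ribosome inside mitochondria. They were taken here as every gene with a probe set of its own whose symbol in the platform table begins with Mrpl or Mrps followed by a digit, which gave 74 of 12393 genes on the array. A gene was represented by its brightest probe set, the one with the highest mean of both arrays. All 74 genes reached 5 on the mean log2 value, the level required for a comparison, and they form 74 of the 7262 genes at that level. The series consists of 1 hybridized sample and 1 live sample of mouse induced pluripotent stem cells (iPSCs), which are somatic cells returned to a pluripotent state. Both samples were grown in embryonic stem cell medium with serum and 2i, which are kinase inhibitors that keep mouse pluripotent cells naive. Polyadenylated RNA from each was amplified, labelled with biotin and read on 1 array. Strain, age, reprogramming method, number of clones and the hybridization procedure are not given in the labels.

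Mitochondria carry their own ribosome, which descends from a bacterial one and makes the few proteins that mitochondrial DNA encodes, all of them parts of the respiratory chain and ATP synthase. Its RNAs come from mitochondrial DNA, whereas its proteins are encoded in the nucleus, made in the cytosol and imported. Some of these proteins have a bacterial counterpart and others are found only in mitochondrial ribosomes, and the classes below follow the ribosomal protein nomenclature for mammals. Subunits were assigned by position in the ribosome, so Mrps18a and Mrps30 count with the large subunit despite their names. Mrps36 is known mainly as a part of the 2-oxoglutarate dehydrogenase complex and was counted in neither subunit.

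Values are the deposited log2 GCRMA values, and each difference is the hybridized value minus the live value. With 1 array per group there is no replicate error and no test of any difference, the number of arrays limits the precision, and each value describes these 2 arrays. Fewer cells of a type and less RNA per cell cannot be told apart in such bulk samples. The pluripotency markers checked, 9 of 9, were at the level, with values from 8.79 to 13.17 in hybridized cells and from 8.94 to 13.14 in live cells. Of the fibroblast markers 2 of 10 reached it, Vim among them, as did 3 of 5 trophectoderm and 0 of 4 primitive endoderm markers. Summed log2 values were 37.69 in hybridized cells and 41.91 in live cells for the fibroblast list. They were 29.37 in hybridized cells and 29.41 in live cells for trophectoderm, and 10.66 in hybridized cells and 11.28 in live cells for primitive endoderm. These sums include markers under the level. Single trophectoderm markers differed in both directions, with Krt8 at -1.48, Krt18 at 0.71, Eomes at -0.08 and Cdx2, under the level, at 0.81. Among the fibroblast markers Col1a1 differed by -1.71 and Vim by -0.15, the latter on a probe set with the suffix _x_at. Without probe sets marked _x_at, _s_at or _a_at, 2 fibroblast markers were at the level. Col1a1 was at least 2-fold lower and Vim at least 2-fold higher there, so the value of Vim depended on the probe set. Of all genes 10.3% were 2-fold higher and 13.8% lower in that setting. The 18 hybridization control probe sets, which report added bacterial and phage transcripts, had a median difference of -0.80. The 5' minus 3' log2 difference of the Actb control probe sets was -0.50 in hybridized cells and -3.02 in live cells, and that of the Gapdh probe sets was -0.12 in hybridized cells and -1.93 in live cells. That of Tfrc, another such control, was -3.23 in hybridized cells and -3.73 in live cells, a smaller shift. The part of these differences in the values below was not tested.

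Mitochondrial ribosomal protein genes read slightly higher in hybridized cells at their middle, while the median of all genes lay on the other side of 0. Their median difference was 0.145, against -0.165 for all 7262 genes and -0.17 for the 7188 genes that were not members. Of the 74 genes, 43 (58.1%) were above 0 and 31 below, whereas 41.1% of all genes compared were above 0. A difference of 1 or more, which is 2-fold, was found for 8 of the 74 (10.8%), against a background of 8.43% of all genes. A difference of -1 or less was found for 3 of the 74 (4.05%), against a background of 15.4%. The higher count was thus near the background and the lower count below it. Within the members' own range of mean levels, 6.65 to 12.41, the median of the 5817 genes was -0.12, with 9.11% of them 2-fold higher and 13.5% 2-fold lower. The SD of the difference over the 74 genes was 0.72, against 0.86 over all genes, and 43 of the 74 lay within 1.5-fold. Centred on the hybridization controls the count at least 2-fold higher was 32 of 74 and the count at least 2-fold lower 1 of 74, while that centring put 31.8% of all genes 2-fold higher and 2.84% 2-fold lower.

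**Figure D1:**
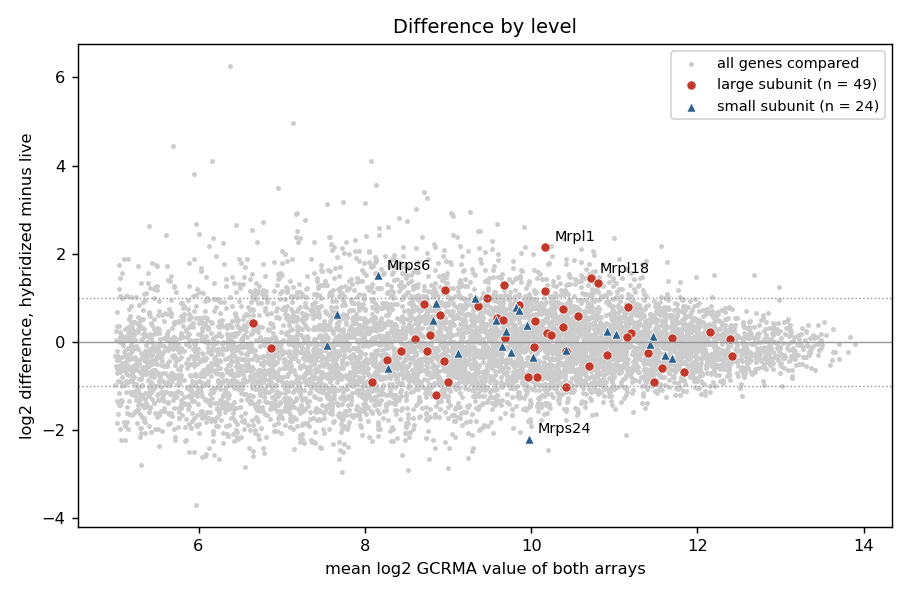
The mean log2 GCRMA value of both arrays (horizontal) is plotted against the log2 difference, hybridized minus live (vertical), for all 7262 genes compared (grey), 49 large subunit genes (red circles) and 24 small subunit genes (blue triangles). Dotted lines mark 2-fold; Mrpl1 at 2.16 is the highest member and Mrps24 at -2.20 the lowest.

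The proteins of the cytosolic ribosome and the subunits of the respiratory chain had medians below 0 on their brightest probe sets as deposited, unlike the mitochondrial ribosome. Cytosolic ribosomal proteins, 44 genes at the level, had a median of -0.36 with 11 genes above 0 and none 2-fold apart. Their extremes were Rpl14 at 0.55 and Rpsa at -0.86. The 74 respiratory chain and ATP synthase genes at the level had a median of -0.315 with 18 above 0, none 2-fold higher and 6 at least 2-fold lower. Ndufb3, a complex I subunit, was the highest of these at 0.93 and Ndufb9, another, the lowest at -1.39. Over all genes 41.1% were above 0, 8.43% 2-fold higher and 15.4% 2-fold lower. Above 0 were 25% of the cytosolic genes and 24.3% of the respiratory chain genes, and 8.11% of the latter were 2-fold lower. Without the probe sets marked by the suffixes _x_at, _s_at and _a_at the median was 0.26 over 57 mitochondrial ribosomal protein genes, -0.26 over 21 cytosolic ones and 0 over 53 respiratory chain genes. On second probe sets it was -0.24 over 19 cytosolic genes and 0.045 over 42 respiratory chain genes. Centring on the hybridization controls adds the same value to every gene and put the median of all genes at 0.635. Both lists then had positive medians that stayed below it, 0.44 for cytosolic ribosomal proteins and 0.485 for the respiratory chain. The mitochondrial ribosomal proteins had 0.945 with that centring. Both _x_at and _s_at mark probes that several genes can share, and _a_at marks probes common to the transcripts of a gene. No test of a difference between lists was possible, since all values come from the same 2 arrays.

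**Figure D2:**
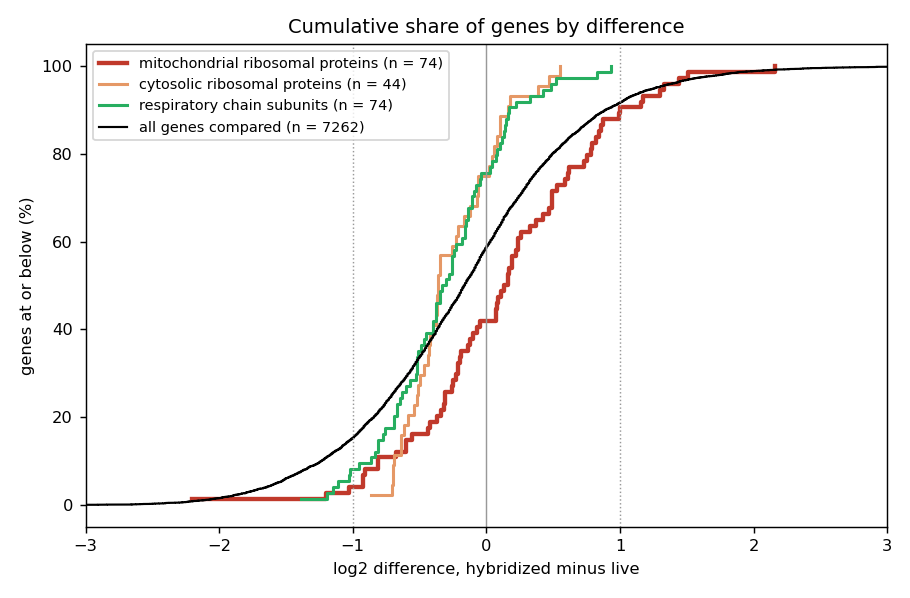
The cumulative percentage of genes (vertical) is plotted against the log2 difference, hybridized minus live (horizontal), for 74 mitochondrial ribosomal proteins, 44 cytosolic ribosomal proteins, 74 respiratory chain subunits and all 7262 genes compared. The red line of the mitochondrial ribosomal proteins crosses 50% at 0.145, to the right of the medians of the other lines at -0.36, -0.315 and -0.165.

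Both subunits had positive medians, 0.11 over 49 large subunit genes and 0.15 over 24 small subunit genes. In the large subunit 6 genes (12.2%) were 2-fold higher or more and 2 (4.08%) as far below; in the small subunit 2 (8.33%) were higher and 1 (4.17%) lower. These shares and those of the classes stand against 8.43% higher and 15.4% lower over all genes. On the brightest probe sets, proteins with a bacterial counterpart had a wider spread than those found only in mitochondria, near the SD of 0.86 over all genes. The 44 genes of the first class had an SD of 0.81 and a median of 0.165, and 7 of them (15.9%) were 2-fold higher and 3 (6.82%) lower. The 29 genes of the second class had an SD of 0.59 and a median of 0.09, and 1 (3.45%) was 2-fold higher and 0 lower. On second probe sets the 2-fold higher members of the second class were Mrpl50 (2.80), Mrps23 (2.30) and Mrpl48 (2.20). Those of the first class were Mrps2 and Mrps5, both 2.26, and Mrpl19 (1.60), while Mrps24 was 2-fold lower at -1.47. The spread of the classes on second probe sets was not computed. In the large subunit the 29 genes with a bacterial counterpart had a median of 0.22 and the 20 others -0.035. In the small subunit the order was turned, with -0.05 over 15 genes with a counterpart and 0.24 over 9 without.

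**Figure D3:**
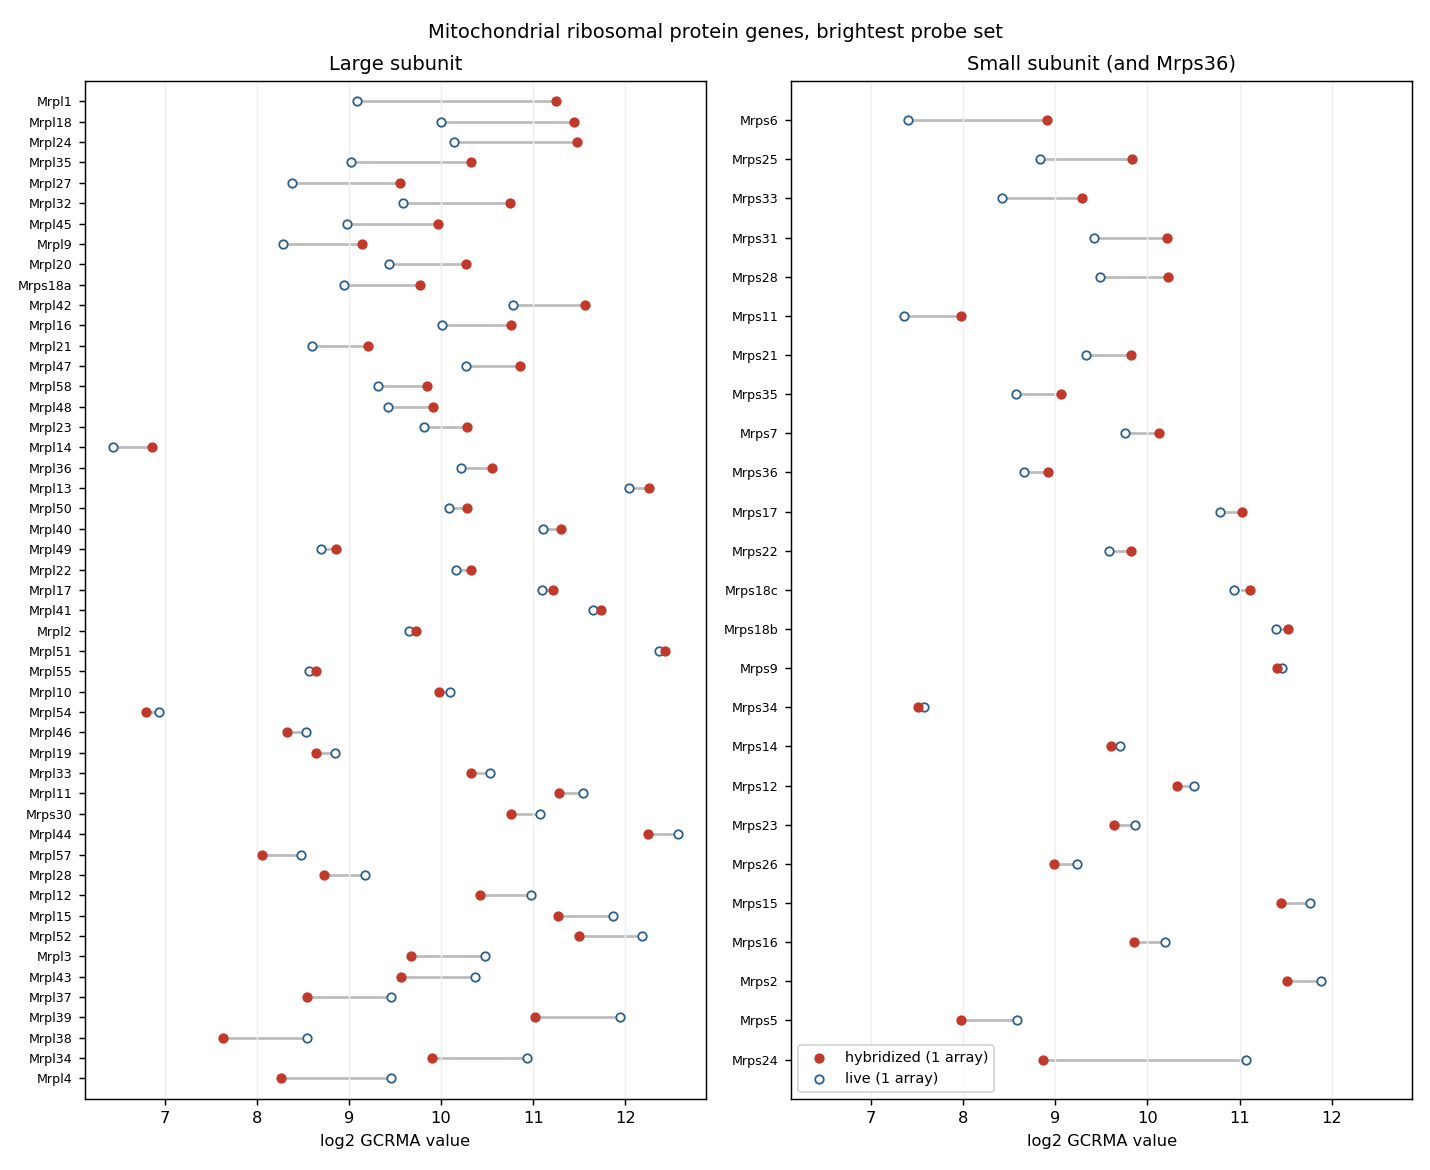
Log2 GCRMA values of the brightest probe set are plotted for the 74 mitochondrial ribosomal protein genes, ordered by difference within the large subunit (left) and the small subunit with Mrps36 (right). Filled red points are the hybridized array and open blue points the live array; the longest lines are those of Mrpl1, at 11.25 hybridized and 9.09 live, and Mrps24, at 8.87 hybridized and 11.07 live.

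Mrpl1 (Entrez 94061) is the counterpart of bacterial L1, the protein of the mobile stalk beside the exit site for tRNA. It read 11.25 in hybridized cells and 9.09 in live cells, a 4.47-fold difference and the highest of the 74. A second probe set of Mrpl1 read 9.68 in hybridized cells and 8.78 in live cells, which is higher too but under 2-fold. Mrps24 (Entrez 64660), the counterpart of bacterial S3 at the entrance of the mRNA channel, stood at the other end. It read 8.87 in hybridized cells and 11.07 in live cells, a difference of -2.20, or 4.59-fold higher in live cells. Its second probe set read 8.02 in hybridized cells and 9.49 in live cells, so both placed it more than 2-fold below live cells. Both Mrps24 probe sets carry the suffix _s_at, which marks probes that can match transcripts of more than 1 gene.

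Of the other 7 genes at least 2-fold higher, 5 belong to the large subunit and 2 to the small subunit. Mrpl18 read 11.44 in hybridized cells and 10.00 in live cells; its bacterial counterpart binds the small ribosomal RNA of the central protuberance. Mrpl24, beside the tunnel through which the new protein leaves, read 11.47 in hybridized cells and 10.14 in live cells. Mrpl35 read 10.32 in hybridized cells and 9.02 in live cells, but a dimmer probe set read 5.53 in hybridized cells and 5.65 in live cells, on the other side of 0. Mrpl27, whose bacterial counterpart reaches toward the peptidyl transferase centre, read 9.55 in hybridized cells and 8.38 in live cells. Mrpl32, which is cleaved by the m-AAA protease on its way into the ribosome, read 10.75 in hybridized cells and 9.59 in live cells. Each of Mrpl18, Mrpl24, Mrpl27 and Mrpl32 was measured on a single probe set. In the small subunit, Mrps6 read 8.91 in hybridized cells and 7.40 in live cells, also on a single probe set. Mrps25, found only in mitochondrial ribosomes, lay exactly at the threshold with 9.83 in hybridized cells and 8.83 in live cells. Its dimmer probe sets at the level differed the other way, by -0.53 and -0.84.

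Beside Mrps24, only Mrpl4 and Mrpl34 were at least 2-fold lower among the 74 on their brightest probe sets as deposited. Mrpl4, the counterpart of a bacterial protein that lines the upper exit tunnel, read 8.26 in hybridized cells and 9.46 in live cells on its single probe set. Mrpl34 read 9.90 in hybridized cells and 10.93 in live cells, and its second probe set differed by -0.42. Next to the threshold lay Mrpl45 at 0.99 on the higher side and Mrpl38 and Mrpl39, both -0.92, on the lower side. Mrpl38 read 7.63 in hybridized cells and 8.55 in live cells. Mrpl39, which is related to threonyl-tRNA synthetase, read 11.02 in hybridized cells and 11.94 in live cells. Mrpl37 (-0.91), Mrpl43 (-0.81) and Mrpl3 (-0.81) completed the 8 lowest.

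The promoters of the members were searched for short motifs, because genes of mitochondrial gene expression are known for binding NRF1, ETS family factors and YY1 near their starts. RefSeq windows on GRCm38.p6 of 300 bases, 250 before and 50 after a gene's start, were found for 65 of the 74 genes, and 20 letter strings were searched on both strands. The string AANATGGC, the core of the YY1 motif with N for any base, was present for 20 of the 65 members (30.8%), against 11.6% of 5997 compared genes and 6.96% of 27025 genes with a window. CCGGAAG, the core of the ETS motif, was present for 36.9% of members and 23.1% of compared genes. An NRF1 core, GCGC and TGCGC around any base, was present for 18.5% of members and 13.8% of compared genes. GGGCGG, the GC box, was less frequent, at 52.3% of members and 72.5% of compared genes. Members with AANATGGC had a median difference of 0.56, with 15 of 20 above 0, and the 45 without it a median of 0.09, with 25 above 0. Over all compared genes the medians were -0.11 with the string and -0.18 without it, and 41.1% of all 7262 genes were above 0. For the ETS core, the NRF1 core and the GC box named above, members with a match had the lower median. It was 0.12 with and 0.19 without the ETS core, 0.03 and 0.17 for the NRF1 core, and 0.145 and 0.19 for the GC box. All these values were seen before AANATGGC was chosen for description from the 20, so they describe the members and carry no test.

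Of the 22 matches in the 20 members, 16 began within 50 bases of the gene's start and 15 ran on the gene's own strand. The windows of the 6 members with a match that were at least 2-fold apart are shown to let the letters around the match be compared, with those of Mrpl47, a protein of the exit tunnel rim with 3 matches, and Mrpl37 beside them. Capitals mark AANATGGC, and each sequence runs 5' to 3' on the strand that carries it.
Mrpl18 (chr17:12916070-12916093, minus strand): ccacagttAACATGGCtgcgacta
Mrpl24 (chr3:87919383-87919406, minus strand): tcacagagAACATGGCtccatttt
Mrpl35 (chr6:71823746-71823769, minus strand): caggctgcAAGATGGCggcttcca
Mrpl27 (chr11:94653791-94653814, plus strand): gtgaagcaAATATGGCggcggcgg
Mrpl32 (chr13:14613264-14613287, plus strand): tccgggtaAAGATGGCagagcgcg
Mrpl47 (chr3:32736727-32736750, minus strand): ccattagaAACATGGCtgcgacca
Mrpl47 (chr3:32736830-32736853, plus strand): ccttactaAACATGGCcgctccca
Mrpl47 (chr3:32736982-32737005, plus strand): cctcactcAATATGGCctcctcta
Mrpl37 (chr4:107066825-107066848, minus strand): cacgggcaAAGATGGCggcgtcca
Mrps24 (chr11:5707652-5707673, minus strand): gccggcccAAGATGGCgtggtc
The first 5 of these belong to members that were 1.16 to 1.44 higher and the last 2 to members at -0.91 and -2.20. The string was thus present at both ends of the order, but the windows shown are not a balanced sample. Of the 20 members with it 15 were above 0, against 41.1% of all genes compared, and Mrpl37 was not 2-fold apart. The string contains ATG, and on the gene's own strand after the start it can be part of the coding start, which was not examined.

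The stretch of 250 bases before the start is shown for the highest and the lowest member, with the NRF1, ETS and YY1 cores and the GC box in capitals where a match was found.
Mrpl1 (chr5:96209865-96210114, plus strand): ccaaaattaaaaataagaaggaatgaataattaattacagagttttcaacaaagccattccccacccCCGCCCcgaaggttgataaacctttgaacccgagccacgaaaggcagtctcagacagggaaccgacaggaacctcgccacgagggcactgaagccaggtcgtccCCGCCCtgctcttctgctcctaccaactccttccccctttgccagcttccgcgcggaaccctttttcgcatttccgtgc
Mrps24 (chr11:5707702-5707951, minus strand): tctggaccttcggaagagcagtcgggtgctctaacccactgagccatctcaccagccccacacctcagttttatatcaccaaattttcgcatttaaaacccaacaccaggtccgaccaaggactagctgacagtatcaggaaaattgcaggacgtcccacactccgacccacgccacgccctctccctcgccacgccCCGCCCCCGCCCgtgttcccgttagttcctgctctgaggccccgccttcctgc
Both stretches held the GC box, read here on the opposite strand as CCGCCC, with 2 matches each, and none of the other 3 cores in these letters.

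The members are grouped here by position in the ribosome; this grouping was made after the values were seen, so no count or median is drawn from it. Proteins along the exit tunnel lay on both sides of 0, with Mrpl24 at 1.33 and Mrpl4 at -1.20. Mrpl45, which anchors the ribosome to the inner membrane, read 9.97 in hybridized cells and 8.98 in live cells. Mrpl47 read 10.86 in hybridized cells and 10.27 in live cells. Mrpl23 (0.47), Mrpl22 (0.16) and Mrpl17 (0.11) were nearer to 0. At the stalk, Mrpl12, the counterpart of the bacterial L7/L12 protein that contacts elongation factors, read 10.42 in hybridized cells and 10.98 in live cells. Mrpl10, which ties Mrpl12 to the ribosome, differed by -0.12. Mrpl11 read 11.28 in hybridized cells and 11.54 in live cells on its brightest probe set. Another probe set of the gene, almost as bright, read 11.79 in hybridized cells and 10.79 in live cells, so the direction of Mrpl11 depended on the probe set. Centred on the hybridization controls, which adds 0.80, the brightest probe sets of all 3 stalk genes become positive, as does the median of all genes, at 0.635.

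In the central protuberance, the crown of the large subunit, beside Mrpl18 and Mrpl27, Mrpl58, a peptidyl-tRNA hydrolase built into the ribosome, read 9.85 in hybridized cells and 9.32 in live cells. Mrpl48 differed by 0.49 and Mrpl40 by 0.19, whereas Mrpl46 (-0.20) and Mrpl38 were below 0. Conserved proteins bound to the ribosomal RNA core lay on both sides of 0. Mrpl20 (0.84), Mrpl16 (0.75) and Mrpl21 (0.61) were the highest of those named here. Mrpl14 (0.42), Mrpl13 (0.22) and Mrpl2 (0.08) followed. Mrpl4, Mrpl3, Mrpl15 (-0.60) and Mrpl19 (-0.21) were below 0 on their brightest probe sets. Mrpl15 had 7 probe sets at the level. Its second brightest differed by 0.16 and a dimmer probe set by 1.57, and the others were below 0.

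The remaining large subunit genes spread over both directions. Mrpl9 (0.86) and Mrpl36 (0.33), with bacterial counterparts, were above 0, and Mrpl55 (0.07) was near it. Mrpl28 (-0.44) and Mrpl33 (-0.21) were below. Among proteins found only in mitochondrial ribosomes, Mrpl42 (0.78), Mrpl50 (0.19), Mrpl49 (0.16) and Mrpl41 (0.09) were above 0. Mrpl52 (-0.68), Mrpl57 (-0.42), Mrps30 (-0.31) and Mrpl54 (-0.14) were below. The 3 large subunit genes with the brightest probe sets differed by less than 0.5 on those, and each differed by more on a dimmer one. Mrpl44, which resembles the nuclease RNase III, read 12.25 in hybridized cells and 12.57 in live cells on the brightest, while a dimmer probe set read 9.88 in hybridized cells and 9.10 in live cells, the other way. Mrpl13 read 12.26 in hybridized cells and 12.04 in live cells, and its other probe sets differed by 0.64 and 0.95. Mrpl51 read 12.43 in hybridized cells and 12.36 in live cells, and its others differed by 0.39 and 0.50. Brightness depends on the probes, so these values do not rank the transcripts.

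In the small subunit the conserved proteins ranged from Mrps6 to Mrps24. Above 0 were Mrps28 (0.73), Mrps11 (0.62), Mrps21 (0.49), Mrps7 (0.37) and Mrps17 (0.24). Near or below 0 lay Mrps9 (-0.05), Mrps14 (-0.10), Mrps12 (-0.19), which sits at the decoding centre, Mrps16 (-0.34) and Mrps5 (-0.60). The bright probe sets of Mrps2 and Mrps15 differed by -0.37 and -0.31. Mrps11 and Mrpl46, neighbours on the genome in RefSeq, lay on either side of 0. Among the mitochondria-specific proteins beside Mrps25, Mrps33 (0.87), Mrps31 (0.79), Mrps35 (0.49) and Mrps22 (0.24) were above 0, the last of them mutated in human disorders of mitochondrial translation. Mrps34 (-0.07), Mrps23 (-0.23) and Mrps26 (-0.25) were below. Mrps36, counted in neither subunit, differed by 0.26.

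Mammals have 3 paralogs related to bacterial S18, which take different places in the ribosome. In the classes used here Mrps18a and Mrps18b count as mitochondria-specific despite this relation, and Mrps18c counts as having a bacterial counterpart. Mrps18a, in the large subunit, read 9.77 in hybridized cells and 8.95 in live cells. Mrps18b, of the small subunit, read 11.53 in hybridized cells and 11.40 in live cells. Mrps18c, also of the small subunit, read 11.11 in hybridized cells and 10.94 in live cells. All 3 were above 0 and under 2-fold, and Mrps18a differed by 0.82 where the other two differed by 0.13 and 0.17.

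The size and often the direction of a gene's difference depended on which of its probe sets was read. For 27 of the 74 genes another probe set also reached the level. On it 6 of 27 were 2-fold or more above live cells and 1 was 2-fold or more below them, against a background of 18.7% higher and 9.04% lower over the 2720 genes with such a probe set. Their median was 0.30 on the second probe set and -0.26 on the brightest, while over the 2720 genes these medians were 0.08 and -0.10. The second probe set gave the higher difference for 21 of the 27 members (77.8%) and for 60.7% of the 2720 genes. The 2 probe sets were at least 1 log2 unit apart in their differences for 13 of 27 members (48.1%) and 28.7% of the 2720 genes. On opposite sides of 0 by that much were 10 of 27 members (37%) and 18.8% of the 2720 genes.

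Mrps5 read 7.41 in hybridized cells and 5.15 in live cells on its second probe set, against 7.98 in hybridized cells and 8.58 in live cells on its brightest. Mrps2 read 7.54 in hybridized cells and 5.28 in live cells on the second, a difference of 2.26 against -0.37. Mrps23 read 9.56 in hybridized cells and 7.26 in live cells on the second, a difference of 2.30 against -0.23. These 3 small subunit genes were thus at least 4-fold higher on one probe set and slightly lower on the other. In the large subunit, Mrpl50 read 10.84 in hybridized cells and 8.04 in live cells on the second probe set, against 10.28 in hybridized cells and 10.09 in live cells on the brightest. Mrpl48 differed by 2.20 on the second and 0.49 on the brightest, and Mrpl19 by 1.60 and -0.21. Mrpl38 (0.77), Mrpl3 (0.64), Mrpl57 (0.94) and Mrpl39 (0.10) were above 0 on the second probe set and below on the brightest, whereas Mrpl35 and Mrps25 turned the other way. The same direction on both was seen for 15 of 27 members (55.6%), 7 above and 8 below, and for 63.7% of the 2720 genes. Over all probe sets at the level 11 members (40.7%) ran 1 way, among them Mrpl1, Mrpl13, Mrpl34 and Mrps24, against 54.7% of the 2720 genes. Beside Mrpl11 and Mrpl44, Mrpl52 and Mrps9 were below 0 on both of the brighter probe sets and above 0 on a dimmer one, at 0.77 and 1.23. Beside these values stands the shift of the 5' minus 3' difference between hybridized and live cells, 2.52 for Actb, 1.81 for Gapdh and 0.50 for Tfrc; the positions of the probe sets along the transcripts were not used here, and the part of this shift was not tested.

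**Figure D4:**
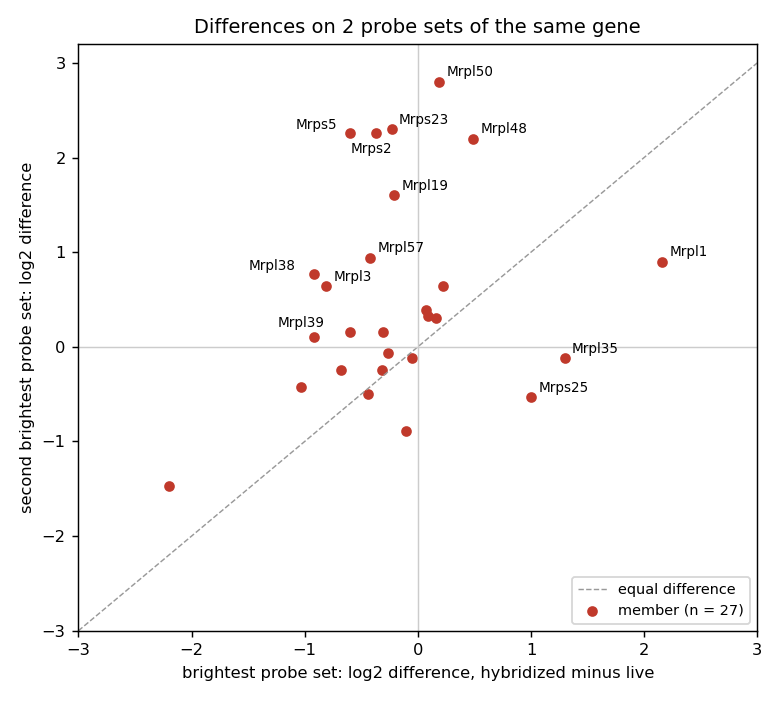
For the 27 members that had 2 probe sets at the level, the log2 difference, hybridized minus live, on the second brightest probe set (vertical) is plotted against that on the brightest (horizontal). Points above the dashed line of equal difference, 21 of 27, had the higher difference on the second probe set; genes at least 1 log2 unit apart are named.

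Other genes of mitochondrial gene expression, from lists written by function, were set beside the members. All 4 measured proteins of the mitochondrial ribosome with other names were under 2-fold and 3 were above 0, from Gadd45gip1 at 0.56, a protein of the large subunit, to Chchd1 at -0.09, of the small subunit. Of 15 translation factors 8 were measured, with a median of 0.385, 2 at least 2-fold higher and 0 lower. That median was 0.005 with a gene's probe sets averaged and -0.125 on the second probe sets of 4 genes. Mtif2, the initiation factor, read 9.69 in hybridized cells and 8.54 in live cells. Tufm, the elongation factor that brings tRNAs to the ribosome, read 9.88 in hybridized cells and 10.82 in live cells. Of 28 assembly factors 19 were measured, with a median of -0.05 and 1 gene 2-fold higher and 2 genes 2-fold lower. Noa1, a GTPase, was the highest at 1.24 and Dhx30, an RNA helicase, the lowest at -1.13.

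For mitochondrial DNA and RNA factors, 22 of 28 were measured, with a median of 0.01 and 4 genes 2-fold higher and 2 genes 2-fold lower. Mterf2, which binds mitochondrial DNA, read 8.29 in hybridized cells and 6.69 in live cells. Polrmt, the mitochondrial RNA polymerase, read 8.25 in hybridized cells and 9.90 in live cells. Of 22 genes that charge mitochondrial tRNAs 13 were measured, with a median of -0.15, none 2-fold higher and Pars2, for proline, at -1.20; Iars2, for isoleucine, was the highest at 0.47. These counts of 2-fold genes stand against the backgrounds of 8.43% higher and 15.4% lower over all genes, and the short lists allow no order between them. The medians of the assembly factors, the DNA and RNA factors and the synthetases, all near 0, each changed sign under some alternative. They were 0.75, 0.81 and 0.65 when centred on the hybridization controls, where the median of all genes was 0.635.

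**Figure D5:**
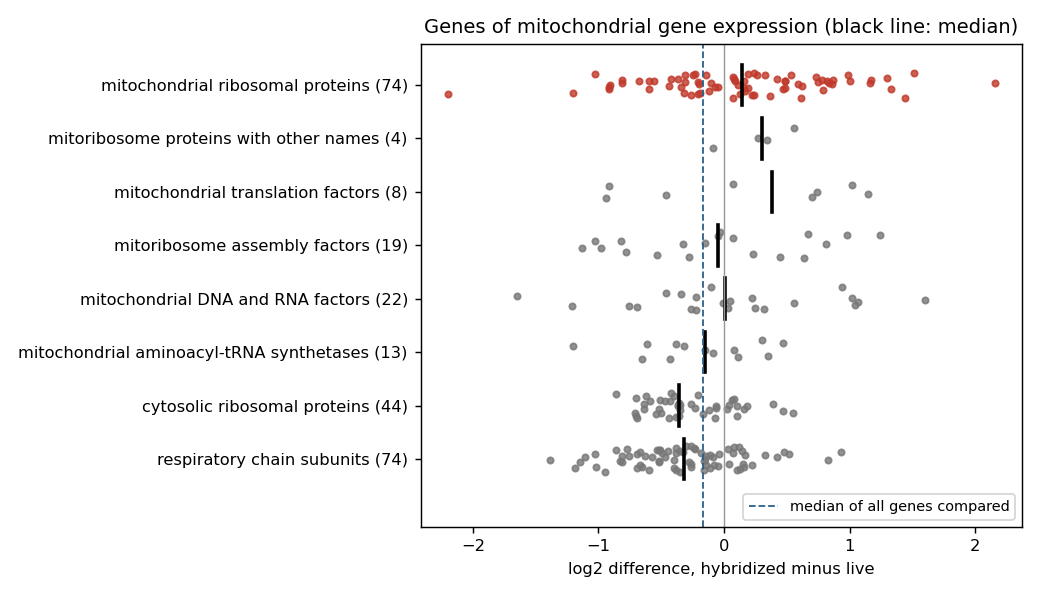
Log2 differences, hybridized minus live (horizontal), are plotted per gene for the mitochondrial ribosomal proteins (red) and 7 other lists (grey), with the number of genes at the level in brackets; black lines are list medians and the dashed line is the median of all genes compared, -0.165. Medians run from 0.385 for translation factors, a value that was 0.005 with probe sets averaged, to -0.36 for cytosolic ribosomal proteins, and points are spread vertically only to be seen.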

How the data were processed

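The values deposited by the authors, 1 for each probe set on each array, were taken as log2 values from GCRMA, which the submitters' processing notes name together with affy and without versions. No file states the log base, which was inferred from the method and the range of 1.02 to 14.24. GCRMA scales arrays to each other, and the set of arrays it was run on is not stated in the labels. Of 22690 probe sets, 64 are controls; the platform table gives 1 gene for 20380, several for 691 and none for 1555, and only the 20380 were used. Entrez IDs of all 74 members matched RefSeq (GRCm38.p6) with the same symbol. The files name no build, and the coordinates given belong to the RefSeq sequences.

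The brightest probe set represented a gene, and a gene entered the comparison if its log2 values averaged at least 5. A model or p-value is not possible with 1 array per group. The genes named are the 2-fold members, the 8 highest and 8 lowest, the 3 brightest of each subunit, the Mrps18 paralogs, members whose probe sets disagree in direction by 1 or more, and the extremes of each other list. Other members are named for completeness, after their values were seen. The members and lists were chosen with earlier results of these data known. The steps were tested on simulated data with known differences. There all probe sets of a gene shared 1 difference apart from small noise, so the choice of probe set was not checked by it. Computation used Python 3.11.15 (pandas 2.3.3, numpy 2.4.6, statsmodels 0.14.6 and matplotlib 3.10.9).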

Additional observations from a re-analysis of the deposited data

Results flagged for a closer look

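Mitochondrial ribosomal protein genes were also read by 3 probe sets that the platform table assigns to more than 1 gene, which no comparison used, and each read higher in hybridized cells than in live cells. The probe set shared by Gm6238 and Mrpl30 read 11.55 in hybridized cells and 11.08 in live cells, a difference of 0.47. That shared by Nme3 and Mrps34 differed by 0.98, while the probe set of Mrps34 alone differed by -0.07. That shared by Ccdc142 and Mrpl53 differed by 0.51. Which of the paired genes gave each signal cannot be told from these values. Of all single-gene probe sets at the level 46.4% were above 0, and the share over all shared probe sets was not computed. Mrps10 and Mrps27, the other genes of this kind in RefSeq, had no probe set under these symbols in the platform table and so were not measured.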

How the results depend on the processing

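The median of the members measured was above 0 under each of the 10 alternatives run. It was 0.25 with a gene's probe sets averaged, 0.30 on second probe sets (27 genes), 0.26 without suffixed probe sets (57 genes), 0.31 centred on the median gene and 0.945 centred on the hybridization controls. The median of all genes moved as well and was -0.05, 0.08, -0.08, 0 and 0.635 in the same order. The large subunit median was 0.26, 0.33, 0.33, 0.275 and 0.91 in that order and 0.2152 after a loess correction on level (span 0.3). The small subunit median was 0.02 on second probe sets (8 genes), 0.315 centred on the median gene and 0.95 on the controls. Quantile normalization and level limits of 4, 7 or none moved these medians by less than 0.1. The number of members at least 2-fold higher was 32 with control centring, against 8 as deposited. It was 20 at a 1.5-fold threshold and 1 at 4-fold. The number lower was 1 with control centring, on second probe sets and at 4-fold, and 11 at 1.5-fold, against 3 as deposited. Over all genes, control centring put 31.8% 2-fold higher and 2.84% 2-fold lower, and second probe sets put 9.04% 2-fold lower. Within 1.5-fold lay 43 of the 74 members and 3825 of the 7262 genes compared. The shares of all genes past 1.5-fold or 4-fold in each direction were not computed. The member counts at these thresholds therefore have no background beside them. Members below 0 numbered 10 of 27 on second probe sets, 19 of 57 without suffixed probe sets and 8 of 74 with control centring, against 31. The first pair of these counts had fewer genes measured. Over all genes the share above 0 was 53.8% on second probe sets, 45.6% without suffixed probe sets and 78.3% with control centring. As deposited it was 41.1%. Mrpl35 changed sign, to -0.12, on its second probe set and without suffixed probe sets. Mrps25 did so at -0.53 on its second probe set and -0.12 averaged over its probe sets. Mrpl1 was 0.90 without suffixed probe sets. The cause was not tested. No paired analysis was possible because each group has 1 array. Values under the level of 5 have no detection calls here.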
